A study of Rattus norvegicus with 60 samples.

Results

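Protocadherins were taken as every gene of the RNA data whose symbol begins with Pcdh, in any case, which gave 54 of 22865 genes. Of these, 42 belong to the clustered families, with 10 alpha, 19 beta and 13 gamma genes, and 12 are non-clustered. The study measured mRNA and methylated DNA in hippocampal area CA1, taken from Sprague-Dawley rats of 90 to 120 d after contextual threat recognition training. Polyadenylated RNA was sequenced in 9 naive libraries, 6 place and 8 threat libraries at 1 h, and 5 place and 6 threat libraries at 24 h. DNA bound by a methyl-binding domain (MBD) protein was sequenced for both times, each with 3 naive, 4 place and 3 threat captures beside 3 inputs. No genotype, transgene or drug is named, what the place and threat animals went through is not described, and the naive RNA carries no time. Whether replicates are different animals is not stated either, so p-values refer to spread among samples that could be technical in origin.

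Protocadherins are single-pass membrane proteins of the cadherin superfamily, and most are made by neurons. In the alpha and gamma clusters each variable exon has its own promoter, encodes the extracellular and transmembrane part of 1 isoform, and is spliced to constant exons shared by the whole cluster, whereas beta genes are single exons that carry their own ends. Each neuron uses a subset of the variable promoters, through CTCF and cohesin, and the resulting proteins bind their own kind at contacts between cells, which lets neurites of 1 cell recognise each other. Non-clustered (delta) protocadherins such as Pcdh10, Pcdh17 and Pcdh19 take part in axon growth, synapse density and cell sorting, and DNA methylation of variable exons and promoters is a known feature of clustered genes that are not in use.

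The 42 clustered genes lay in 1 stretch of chromosome 18, from 29648344 to 30660582 in the coordinates of the deposited data, which are those of rat rn5. Of these, 37 had spans under 4000 nt, the size of a single variable exon. Many promoters of clustered genes are known to hold a short element around the letters CGCT, the conserved sequence element. The windows printed here are those of the genes on which the results turn and of their neighbours. RefSeq (GRCr8) gave a promoter of 300 bases, from 250 before to 50 after the annotated start, for 39 of the 54 genes by symbol, 28 of them clustered and in the same order along the chromosome as in the RNA data. The 8 letters GTGGCGCT, searched on both strands, were present in 13 of 15 beta promoters and in 1.11% of all 33469 promoters. Capitals mark these letters, and each beta window has 36 bases.
Pcdhb5 (chr18:29302403-29302438, + strand): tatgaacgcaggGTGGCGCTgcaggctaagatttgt
Pcdhb6 (chr18:29320151-29320186, + strand): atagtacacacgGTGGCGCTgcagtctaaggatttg
Pcdhb8 (chr18:29339257-29339292, + strand): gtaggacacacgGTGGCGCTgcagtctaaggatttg
Pcdhb9 (chr18:29379247-29379282, + strand): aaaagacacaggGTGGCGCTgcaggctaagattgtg
Pcdhb14 (chr18:29431808-29431843, + strand): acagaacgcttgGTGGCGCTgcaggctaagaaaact
Pcdhb19 (chr18:29478763-29478798, + strand): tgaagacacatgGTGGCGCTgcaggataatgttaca

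The Pcdhb6 and Pcdhb8 windows were alike at 34 of 36 bases, against a median of 25 over all pairs of beta windows. The windows of Pcdhb4 and Pcdhb12, not printed, were also alike at 34 of 36. Every pair shares the 8 searched letters by the way the windows were chosen. In these 2 genes the element lay farther from the annotated start, with its first base at -228 and -207, than in the other 11 beta genes that held it, where it lay between -97 and -51. In the gamma cluster the overlapping letters CGCTGTTCA, also searched on both strands, were present in 6 of 13 promoters and in 0.155% of all promoters. The windows of the 3 gamma genes described further in the results have 37 bases each.
Pcdhga7 (chr18:29794208-29794244, + strand): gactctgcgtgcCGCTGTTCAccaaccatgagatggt
Pcdhga10 (chr18:29825817-29825853, + strand): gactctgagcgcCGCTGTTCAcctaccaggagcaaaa
Pcdhga12 (chr18:29843865-29843901, + strand): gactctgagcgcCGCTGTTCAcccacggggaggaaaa

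Neither run of letters was found in the promoters of the 11 non-clustered genes that had one. Only 1 alpha promoter was matched, and it held neither run, so the alpha cluster was hardly covered. A match is a description of the letters in the window and says nothing about binding by a factor. The whole promoter of Pcdhb8, the gene with the largest difference of all members in the RNA comparisons, is printed with the element in capitals.
Pcdhb8 (chr18:29339226-29339525, + strand): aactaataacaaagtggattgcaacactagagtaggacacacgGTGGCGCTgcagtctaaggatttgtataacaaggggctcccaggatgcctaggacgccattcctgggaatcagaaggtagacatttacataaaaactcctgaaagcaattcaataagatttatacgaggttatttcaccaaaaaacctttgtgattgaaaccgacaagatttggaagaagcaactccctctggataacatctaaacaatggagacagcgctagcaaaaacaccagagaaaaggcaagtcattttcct

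The RNA values were FPKM, reads per kb of transcript and scaled to library size, with no read totals, so the depth of single values is unknown, and 12472 to 12947 genes per library reached 1 FPKM. Markers of the labelled tissue were present: the summed level of 8 CA1 pyramidal cell genes ran from 655 to 1227 FPKM over the 34 libraries and that of 8 CA2 and CA3 genes from 117 to 249 FPKM. In bulk tissue, fewer cells of a type and less RNA per cell cannot be told apart. The labels name no batch, and any difference in handling between 1 h and 24 h cannot be told apart from time. Each contrast was tested in 1 limma fit of log2(FPKM + 1) over 13153 genes, those reaching 1 FPKM in 5 libraries or more, and a gene was called when its Benjamini-Hochberg adjusted p was under 0.05. Fold changes are differences on that scale, which understates the change of genes near 1 FPKM.

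In the alpha cluster 3 genes stood far above the rest. Pcdha9, Pcdha8 and Pcdhac2 had means over the 34 libraries of 13.6, 13.5 and 10.4 FPKM, whereas the other 7 alpha genes lay between 0.135 and 1.02 FPKM. The annotated spans of these 3 genes, unlike those of the other 7, run on to the same end point on chromosome 18, 29924444. Their levels moved almost as 1 value, with correlations of 0.997 for Pcdha8 with Pcdha9 and 0.971 for Pcdha9 with Pcdhac2 across 34 libraries, which share depth. Their spans overlap up to the common end, so the 3 values are not independent readings.

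The gamma cluster had the same shape. Pcdhga12, whose span of 52514 nt runs on past the other gamma genes, had the highest level of all protocadherins, with a mean of 34.9 FPKM and a range of 30.4 to 39.7. The variable exons Pcdhga7 and Pcdhga2 followed at 4.35 and 4.12 FPKM, and the lowest gamma gene was Pcdhga1 at 0.268 FPKM. Whether reads of the shared constant exons were counted in the long spans of Pcdhga12, Pcdha8, Pcdha9 and Pcdhac2 was not tested. The levels of these long genes therefore cannot be read as those of single isoforms or ranked against single variable exons. Another 5 genes with no symbol lie among the gamma genes and were not counted as members.

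Beta genes, each a gene of its own, kept to a narrow band. Their highest means were 2.98 FPKM for Pcdhb9, 2.59 for Pcdhb19 and 2.50 for Pcdhb5, and 14 of 19 lay between 1 and 5 FPKM. Pcdhb1 was listed at or near 0 in the 34 libraries, with a highest value of 0.00911 FPKM. Beta exons are close copies of each other, and how reads matching more than 1 copy were counted is not given in the sources used here, so the level of a single beta gene is uncertain in that respect.

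Non-clustered genes had the highest median of the 4 classes, with gene means at a median of 7.55 FPKM against 0.897 for alpha, 1.33 for beta and 2.67 for gamma genes. Pcdh1, an adhesion molecule also known from epithelia, had 29.4 FPKM, Pcdh10, which takes part in synapse elimination, 19.4, and Pcdh9, a delta protocadherin of cortical neurons, 15.7. At the low end were Pcdh18 at 0.775 FPKM and Pcdh12, known from endothelium, at 0.0985 FPKM. The median over all tested genes was 7.79 FPKM, and 9 of the 42 tested protocadherins reached it.

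**Figure D1:**
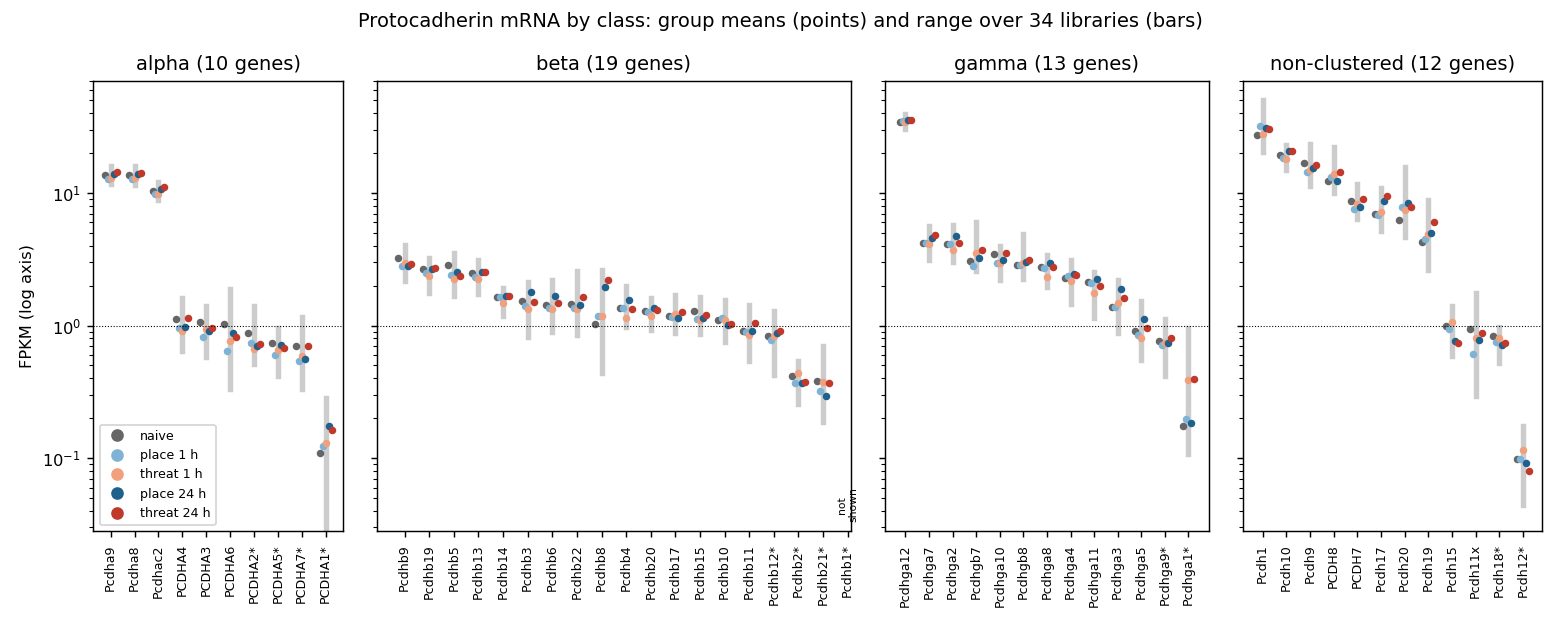
FPKM on a log axis for the 54 protocadherin genes by class; points are the means of the 5 groups and grey bars run from the lowest to the highest of 34 libraries. An asterisk marks the 12 genes that did not reach 1 FPKM in 5 libraries, the dotted line marks 1 FPKM, and Pcdhb1, at or near 0, is left out. The genes with means over all libraries above 10 FPKM are Pcdhga12, the 3 alpha genes that share an end, and Pcdh1, Pcdh10, Pcdh9 and PCDH8.

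The 12 genes that were not tested were PCDHA1, PCDHA2, PCDHA5 and PCDHA7, Pcdhb1, Pcdhb2, Pcdhb12 and Pcdhb21, Pcdhga1 and Pcdhga9, and Pcdh12 and Pcdh18. The 42 tested genes were 6 alpha, 15 beta, 11 gamma and 10 non-clustered genes. Counts of members that follow cover these 42 genes alone.

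The first question was which protocadherins differed from naive tissue 1 h after training. No protocadherin was called in threat against naive at 1 h, where 0.928% of all genes tested were called, or in place against naive at 1 h, where 0.129% were. Without adjustment, p was under 0.05 for 5 protocadherins in threat and 4 in place. The gene with the lowest p in both was Pcdhga10, a gamma variable exon, with a difference of -0.17 ± 0.07 (SE) in threat (adjusted p = 0.203) and -0.18 ± 0.07 in place (adjusted p = 0.369). These 2 comparisons share the 9 naive libraries. The difference was below 0 for 29 of 42 genes in each, with medians of -0.07 and -0.04 beside 0.02 and 0.00 over all genes tested, and for all 6 alpha genes in both.

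The naive libraries were not alike, which bears on this. They were split by the order of columns, which is not a labelled batch. Libraries 5 to 9, which the deposited data list ahead of 1 to 4, differed from libraries 1 to 4 in 14.6% of all genes in a limma fit of the naive libraries alone. Of the 42 protocadherins, 7 were higher in libraries 5 to 9 and 0 lower, namely Pcdha8, Pcdha9, Pcdhac2, Pcdhb5, Pcdhb9, Pcdhga3 and PCDH7. The genes did not all divide at this split. Pcdha8 read 11.5 to 13.01 FPKM in libraries 1 to 4 and 13.4 to 15.9 in 5 to 9, but PCDH7 read 10.3 to 11.8 in libraries 7 to 9 and 8.55 FPKM or lower in the other 6, and Pcdhga3 was highest in libraries 5 and 6 (1.73 and 1.98 FPKM). Against libraries 5 to 9 alone, 10 protocadherins were lower in threat at 1 h (19.8% of all genes called) and 10 in place at 1 h (12.7%), whereas against libraries 1 to 4 alone 0 were called in either. The lower levels at 1 h, the 3 long alpha genes included, thus depended on which naive libraries were used.

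At 24 h, 3 protocadherins were called in threat against naive, in a comparison where 10.1% of all genes were. Pcdhb8, a beta cluster gene at 30142319 to 30144658 on chromosome 18, and Pcdh17, a delta protocadherin of axons and presynaptic sites, were higher, and Pcdh15, known as a part of the tip link of hair cells, was lower. In place against naive at 24 h, Pcdhb8 alone was called, where 5.05% of all genes were. These comparisons share the naive libraries with each other and with those at 1 h.

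Pcdhb8 had a low level that differed widely among naive libraries, with a lowest value of 0.443, a median of 0.759 and a highest of 1.81 FPKM. In place at 1 h the lowest, median and highest values were 0.684, 1.08 and 1.85 FPKM, and in threat at 1 h 0.666, 1.26 and 1.56 FPKM. In place at 24 h the 5 libraries read 2.35, 1.43, 2.20, 2.09 and 1.68 FPKM, and in threat at 24 h the lowest, median and highest were 1.57, 2.38 and 2.61 FPKM. All 6 threat libraries at 24 h lay above the highest threat library at 1 h, and 4 of the 6 above the highest naive library.

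The means of Pcdhb8 were 1.03 ± 0.55 FPKM in naive (SD, n = 9) and 2.21 ± 0.45 in threat at 24 h (SD, n = 6), a ratio of 2.15. The difference on the log2 scale was 0.70 ± 0.14 (SE; limma adjusted p = 0.00224), and for place at 24 h, with a mean of 1.95 ± 0.38 FPKM (SD, n = 5), it was 0.58 ± 0.15 (limma adjusted p = 0.0242). In threat the call held in all 44 alternatives in which the gene was tested, with adjusted p from 0.000907 to 0.0352, which include naive libraries 1 to 4 alone and 5 to 9 alone. In place it was lost in 5 of 44, among them naive libraries 5 to 9 alone (adjusted p = 0.147) and the fits without naive replicate 4, place 24 h replicate 1 or place 24 h replicate 3 (adjusted p = 0.0547, 0.0618 and 0.0748). Pcdhb6, whose promoter window is nearly that of Pcdhb8, had a correlation of 0.568 with it across the 34 libraries and was not called in any of the 9 contrasts.

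Pcdh17 had 5.62, 6.22 and 10.99 FPKM as its lowest, median and highest naive values, and 7.34, 9.997 and 10.6 FPKM in threat at 24 h. The groups overlapped, since naive replicate 6 lay above every threat library, and the other 8 naive libraries reached 8.30 FPKM at most. The mean was 6.92 ± 1.71 in naive and 9.47 ± 1.26 in threat at 24 h (SD, n = 9 and 6), with a difference of 0.42 ± 0.13 (SE; limma adjusted p = 0.0325). The call was lost in 10 of 45 alternatives, including naive libraries 5 to 9 alone (adjusted p = 0.326) and the fits without naive replicate 2, 3 or 4 or threat 24 h replicate 2, 4, 5 or 6 (adjusted p from 0.0559 to 0.0764). Over 34 libraries Pcdh17 moved with Pcdh19 (r = 0.855), with the mean of 6 dentate granule cell markers (r = 0.596) and with that of the 8 CA1 pyramidal cell markers (r = 0.542). The summed level of the dentate list had medians of 55.0 FPKM in naive and 60.7 in threat at 24 h. In this contrast 5 of the 6 dentate markers had differences above 0 (median 0.39, 0 called), as did 7 of the 8 CA1 markers (median 0.17, 0 called). The part of either cell type in this difference was not tested.

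Pcdh15 was near 1 FPKM in naive libraries, with a lowest value of 0.802, a median of 0.966 and a highest of 1.401, and lay between 0.609 and 0.872 FPKM in threat at 24 h. The 6 threat libraries were all below the naive mean of 0.994 FPKM, and 4 of them below the lowest naive library. The difference was -0.20 ± 0.06 (SE; limma adjusted p = 0.0312). It was lost in 10 of 44 alternatives, including naive libraries 5 to 9 alone (difference -0.11, adjusted p = 0.521), quantile normalization (adjusted p = 0.0741) and the fits without naive replicate 2, 3 or 4 or threat 24 h replicate 1, 5 or 6 (adjusted p from 0.0521 to 0.0892). Across 34 libraries Pcdh15 moved with the mean of 8 endothelial and mural markers (r = 0.796) and of 7 astrocyte markers (r = 0.625), and 3 of the 8 endothelial markers were also called lower in threat at 24 h. In the same contrast 0 of the 7 astrocyte markers (median -0.04) and 0 of 6 oligodendrocyte precursor markers (median -0.05) were called. The part of those cells in the fall of Pcdh15 was not tested.

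The choice of naive libraries as control also changed the count of protocadherins at 24 h. Against libraries 1 to 4 alone 9 were called in threat (29.6% of all genes) and 6 in place (23.7%), among them Pcdha8, Pcdha9, Pcdhac2 and Pcdhga3 in both. Against libraries 5 to 9 alone 1 was called in threat (0.456% of all genes), which was Pcdhb8, and 0 in place (0.0836%). The median difference over the 42 genes in threat at 24 h was 0.04 with all naive libraries, 0.10 against libraries 1 to 4 and -0.02 against libraries 5 to 9.

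**Figure D2:**
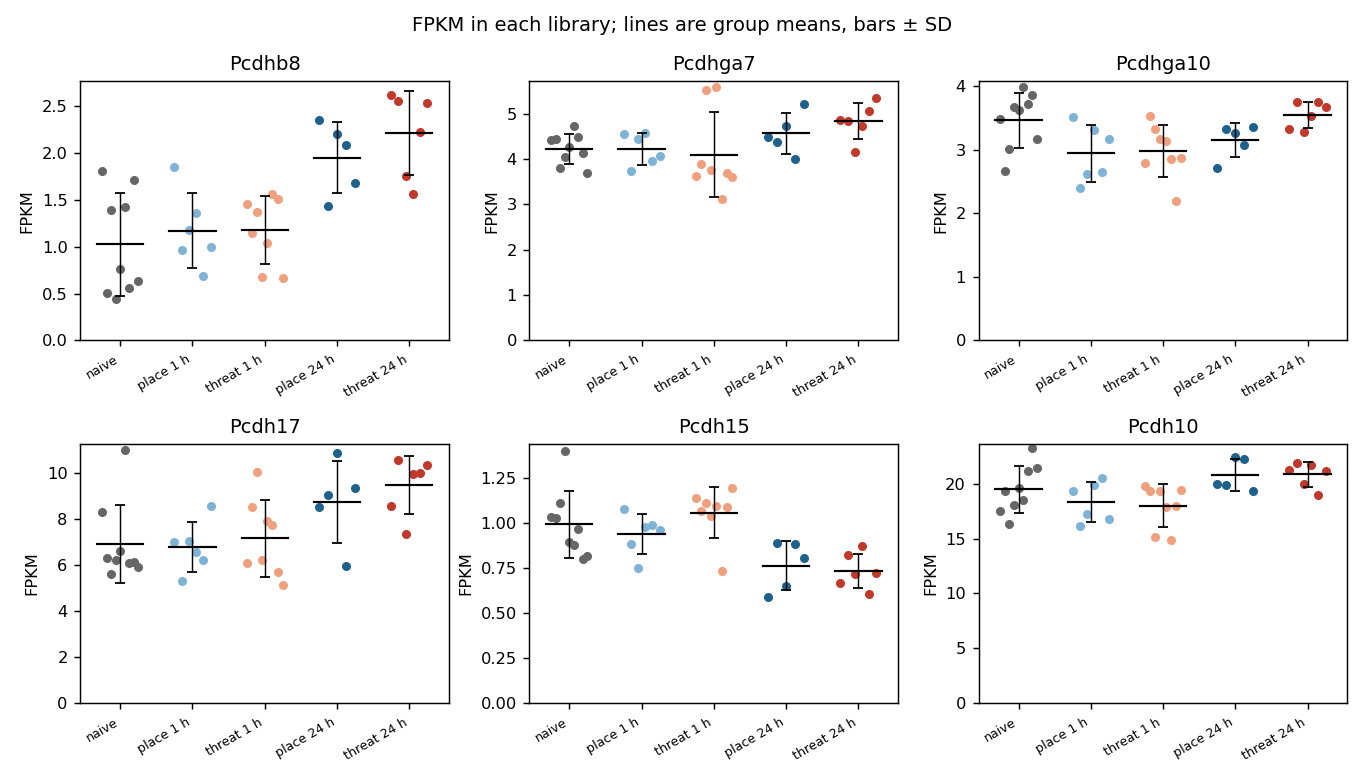
FPKM of the 6 protocadherins called in at least 1 contrast, 1 point per library in the 5 groups, with the mean as a line and the SD as a bar; the axes start at 0. Pcdhb8 lies between 1.43 and 2.61 FPKM in the 11 libraries at 24 h and at 1.85 FPKM or lower in the other 23, and Pcdh15 is at 0.892 FPKM or lower at 24 h.

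The comparisons within training, which do not use the naive libraries, asked how 24 h differed from 1 h. In threat, 6 of 42 protocadherins were called, in a comparison with 29.3% of all genes called, which is a larger share than that of the members. Pcdhb8 (0.57 ± 0.15 SE, limma adjusted p = 0.00432), Pcdh17 (0.37 ± 0.13, adjusted p = 0.0295), Pcdh10 (0.21 ± 0.07, adjusted p = 0.0243), Pcdhga7 (0.21 ± 0.08, adjusted p = 0.0430) and Pcdhga10 (0.20 ± 0.07, adjusted p = 0.0383) rose and Pcdh15 fell by 0.25 ± 0.06 (adjusted p = 0.00291). In place, 0 of 42 were called by limma (13.3% of all genes). There, 5 had an unadjusted p under 0.05, and Pcdhb8 had the lowest, with 0.45 ± 0.16 (adjusted p = 0.0651).

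For Pcdh10 the threat libraries read 14.9, 18.7 and 19.8 FPKM as lowest, median and highest at 1 h, and 18.9, 21.2 and 21.9 FPKM at 24 h. All but 1 of the 6 libraries at 24 h lay above the highest at 1 h. For Pcdhga7 the values were 3.12, 3.73 and 5.60 FPKM at 1 h and 4.16, 4.86 and 5.35 FPKM at 24 h, so the groups overlapped through replicates 3 and 5 at 1 h. For Pcdhga10 they were 2.19, 2.998 and 3.53 FPKM at 1 h and 3.27, 3.60 and 3.74 FPKM at 24 h, with 3 of 6 libraries above the highest at 1 h.

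The calls of Pcdhb8 and Pcdh15 for 24 h against 1 h in threat held in all 42 alternatives in which each was tested. Those of the other 4 genes were lost in 4 to 15 of 42 or 43. Without threat 1 h replicates 4 and 7, which were rich in choroid plexus transcripts, 3 of 42 protocadherins and 22.5% of all genes were called, and Pcdh17, Pcdhga7 and Pcdhga10 had adjusted p of 0.111, 0.128 and 0.110. Of the single libraries, leaving out threat 1 h replicate 1, 6 or 7 or threat 24 h replicate 4, 5 or 6 gave 3 called genes, and leaving out threat 24 h replicate 2 gave 2. In the same contrast 5 of 8 endothelial and mural markers were called lower, with a median sum of 113 FPKM at 1 h and 91.2 FPKM at 24 h. Of 7 astrocyte markers 2 were called lower (median difference -0.05), and of 6 oligodendrocyte precursor markers 0 were called (median -0.02). The part of these cell types in the difference of Pcdh15 was not tested.

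For most protocadherins the estimated difference between 1 h and 24 h was small and above 0. In threat the difference was above 0 for 39 of 42 genes, with a median of 0.12, where 47.6% of all genes were above 0 with a median of -0.01. In place it was above 0 for 36 of 42 genes, with a median of 0.08, where 52.9% of all genes were above 0 with a median of 0.01. All 11 gamma and all 6 alpha genes were above 0 in both, as were 13 and 12 of 15 beta genes and 9 and 7 of 10 non-clustered genes. These counts describe the direction of estimates, most of which did not pass the test, and genes of 1 cluster are not independent. In the same contrasts 7 of 8 CA1 pyramidal cell markers were above 0 in threat and in place (medians 0.29 and 0.08), as were 6 and 7 of 8 interneuron markers (0.15 and 0.13), whereas 1 of 8 endothelial and mural markers was in each (-0.26 and -0.10). Neuronal lists did not all rise, since 2 of 7 CA2 and CA3 markers were above 0 in each (-0.14 and -0.20), but 5 and 4 of 6 dentate markers were (0.16 and 0.24). Of 7 microglia markers 6 and 7 were above 0 (0.09 and 0.20), and of 7 astrocyte markers 2 and 3 (-0.05 and -0.01). The part of cell makeup in these differences was not tested. The median over the 42 genes stayed above 0 under both other scalings, at 0.12 and 0.16 in threat and 0.08 and 0.11 in place for median-ratio scaling and quantile normalization.

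**Figure D3:**
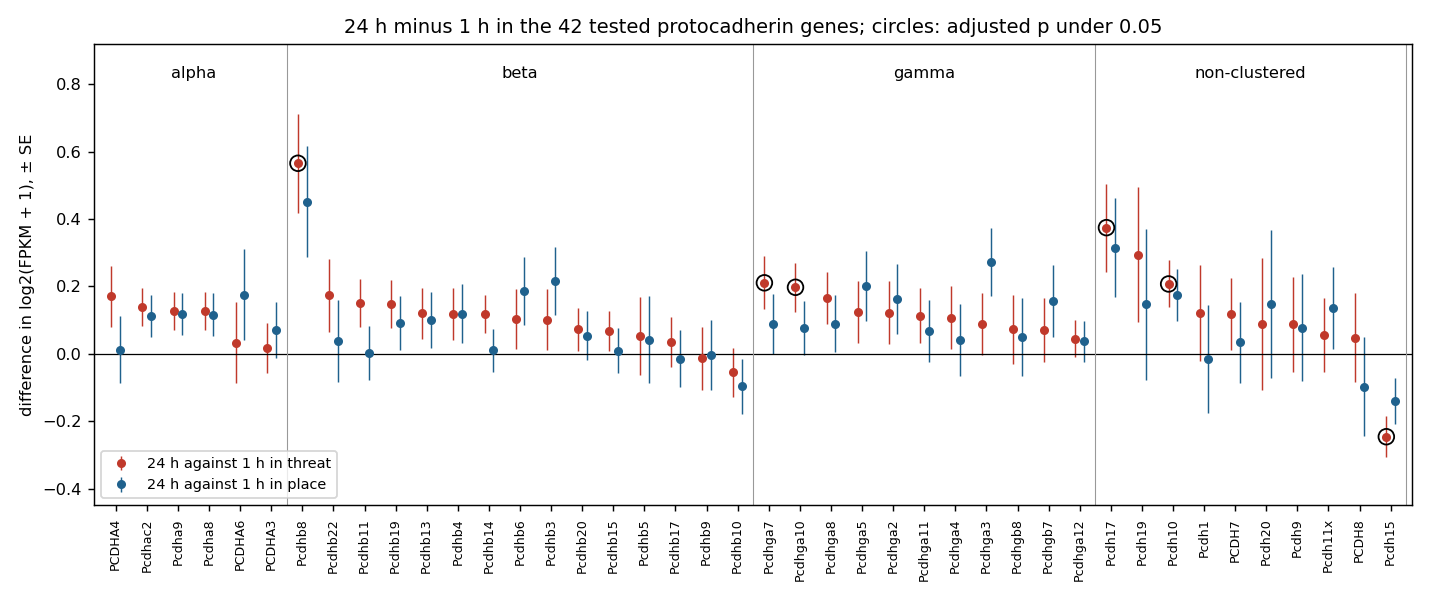
Difference between 24 h and 1 h on the log2(FPKM + 1) scale, with its SE, for the 42 tested protocadherins by class, in threat (red) and place (blue) libraries; black circles mark adjusted p under 0.05. In threat 39 of 42 points lie above 0 and 6 are circled, and in place 36 of 42 lie above 0 and none is circled.

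Threat and place, compared with each other, did not differ in any protocadherin that could be called. At 1 h and at 24 h 0 of 42 genes were called by limma, with 0% of all genes called in each and 2 and 0 protocadherins at an unadjusted p under 0.05. At 1 h the lowest p was that of Pcdhgb7, a gamma variable exon, with 0.22 ± 0.09 (SE, adjusted p = 1.00). At 24 h it was that of Pcdhga10, with 0.14 ± 0.08 (adjusted p = 1.00). Pcdhb8 differed between threat and place by 0.12 ± 0.16 at 24 h, an SE too large to show that the groups were alike. The interaction of training and time gave 0 calls (0% of all genes called, 0 protocadherins at an unadjusted p under 0.05), with the lowest p for Pcdhb11 (0.15 ± 0.11).

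Pcdhga1 was never tested, since it reached 1 FPKM in no library, and it was singled out after its values were seen, as a description with no test. In 29 libraries, all 9 naive and all 11 place libraries among them, it lay at 0.302 FPKM or lower. In threat 1 h replicates 3 and 5 it read 0.967 and 0.726 FPKM, and in threat 24 h replicates 1, 5 and 6 it read 0.811, 0.550 and 0.622 FPKM, with the other 9 threat libraries among the 29. The same 2 libraries at 1 h had the highest values of Pcdhgb7 in that group, 5.9995 and 4.29 FPKM, where the other 6 lay at 3.28 FPKM or lower, and of Pcdhga7, 5.52 and 5.60 FPKM, where the others lay at 3.90 FPKM or lower. Pcdhgb8 was also highest there, at 4.88 and 3.44 FPKM. Not all gamma genes were high in these 2 libraries. Pcdhga2 (3.25 and 3.55 FPKM) and Pcdhga8 (1.96 and 2.23 FPKM) lay within the range of the other 6. Pcdhga11 read 1.15 FPKM in replicate 3, its lowest value in any library. The summed level of CA2 and CA3 markers was 225 FPKM in threat 1 h replicate 3, but 145, 136, 146 and 148 FPKM in the other 4 of the 5 libraries high in Pcdhga1. Place 1 h replicate 3, with the highest sum of all, had 0.243 FPKM of Pcdhga1. The summed level of the dentate list reached 141 FPKM in threat at 1 h and 122 at 24 h, and at most 104 in naive and place libraries. PCDH8, which followed the dentate markers, read 22.4, 14.4, 13.1, 17.4 and 20.1 FPKM in these 5 libraries, in the order given. In naive and place libraries PCDH8 read 17.1 FPKM at most. The part of cell makeup in the Pcdhga1 values was not tested.

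**Figure D4:**
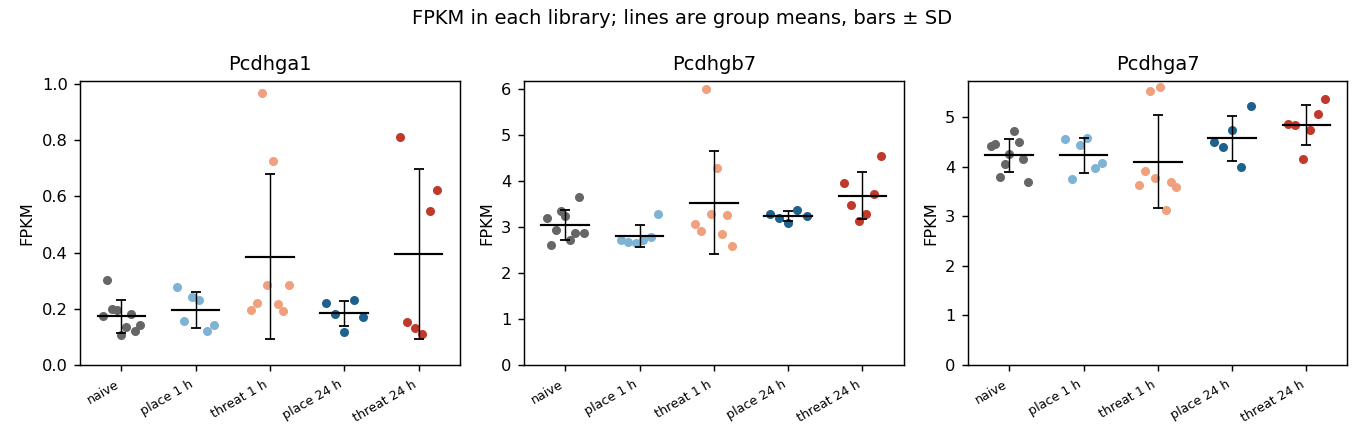
FPKM of the gamma genes Pcdhga1, Pcdhgb7 and Pcdhga7, 1 point per library in the 5 groups, with the mean as a line and the SD as a bar; axes start at 0. For Pcdhga1, 2 threat libraries at 1 h and 3 at 24 h lie between 0.550 and 0.967 FPKM and the other 29 libraries at 0.302 FPKM or lower.

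Among the non-clustered genes, Pcdh1, PCDH8, Pcdh19 and Pcdh20 followed markers of the neighbouring hippocampal fields more closely than those of CA1. Over 34 libraries, PCDH8 and Pcdh19, the gene of an X-linked epilepsy, had correlations of 0.854 and 0.826 with the mean of the dentate granule cell markers, and Pcdh20 and Pcdh1 of 0.789 and 0.716 with that of 7 CA2 and CA3 markers. With the mean of the CA1 markers the same 4 genes had correlations of 0.149, 0.265, 0.272 and 0.461. Place 1 h replicate 3, the library with the highest CA2 and CA3 sum (249 FPKM), also had the highest Pcdh20 (15.7 FPKM) and Pcdh1 (50.2 FPKM). These correlations describe libraries that share depth and tissue, and none of Pcdh1, PCDH8, Pcdh19 and Pcdh20 was called in any contrast. Pairs of non-clustered genes had a median correlation of -0.20, with a range of -0.55 to 0.90, and pairs of gamma genes of 0.38, whereas beta pairs had 0.14.

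Genes that act with protocadherins were also looked at, in 3 lists, whose counts are to be read against the 29.3% of all genes called between 1 h and 24 h in threat, 13.3% in place, and 10.1% and 5.05% against naive at 24 h. Of 21 tested regulators of the clusters, such as CTCF, cohesin and methylation enzymes, 1 rose and 4 fell between 1 h and 24 h in threat. Smc1a, a cohesin subunit, rose by 0.25 ± 0.06 (SE, limma adjusted p = 0.00361), and the DNA methyltransferase Dnmt3a fell by 0.26 ± 0.05 (adjusted p = 0.000130) and the histone methyltransferase Setdb1 by 0.32 ± 0.06 (adjusted p = 0.000223). In place 2 of these rose, Smc1a and Smc3, and 1, Setdb1, fell. Against naive at 24 h, Dnmt3a and Setdb1 were lower in threat (-0.21 and -0.23) and in place (-0.23 and -0.22), and 0 were higher. Of 21 binding partners and proteases, 3 rose and 1 fell between 1 h and 24 h in threat, with Pdcd10 at 0.28 ± 0.06, Ywhae at 0.22 ± 0.04, Adam10, a protease that cuts cadherins, at 0.17 ± 0.05 and Mapk14 at -0.27 ± 0.06. Of 24 other cadherins, 7 rose and 3 fell, led by Celsr3, a seven-pass cadherin of axon guidance, which fell by 0.85 ± 0.11 (adjusted p = 2.38e-06). Cdh24 fell by 0.67 ± 0.13 and Cdh11 rose by 0.25 ± 0.06, and in place Celsr3 and Cdh24 fell and Cdh11 rose. At 1 h and between threat and place, 0 members of the 3 lists were called.

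Captured methylated DNA was read as RPKM in bins of 500 nt, and single reads could be recovered from the values, which put captured libraries at 39.3 to 44.7 M reads at 1 h and 52.8 to 73.2 M reads at 24 h. In the 37 clustered genes with short spans, 136 of 224 bins (60.7%) at 1 h held captured DNA above the filter, a mean of 1 RPKM and 2 times the input, against 6.04% of all bins. At 24 h 68 of 224 bins (30.4%) did, against 1.47% of all bins. Every one of the 37 genes had such a bin at 1 h and 30 had one at 24 h. Levels at the 2 times come from separate sets of libraries and were not compared by a test.

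The captured DNA of clustered genes lay mostly after the gene start, where the variable exon is, with less in the kb before it. At 1 h the median over 10 alpha genes was 0.132 RPKM in the window from 1250 to 250 nt before the annotated start and 6.79 RPKM from 750 to 2250 nt after it, with inputs of 0.194 and 0.836 RPKM. In the 19 beta genes the medians were 0.0361 and 3.56 RPKM, with inputs of 0.199 and 0.653, and in the 13 gamma genes 0.182 and 2.04 RPKM, with inputs of 0.236 and 0.554. The level after the start was at least 2 times that before it in 10 of 10 alpha, 19 of 19 beta and 13 of 13 gamma genes. At 24 h this was so in 9, 18 and 10 genes, with levels after the start of 1.32, 1.02 and 0.962 RPKM. Levels before the start at 24 h were 0.214, 0.193 and 0.399 RPKM, with inputs of 0.337, 0.305 and 0.344 RPKM. The level before the start was below the input in 6 of 10 alpha, 17 of 19 beta and 10 of 13 gamma genes at 1 h. At 24 h it was so in 8, 14 and 5 genes.

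Pcdhb8 followed this form, with 0.00729 RPKM before the start and 2.38 RPKM after it at 1 h. Its mean over the 6 bins of the gene was 1.22 RPKM in naive, 1.36 in place and 1.59 in threat libraries at 1 h, and 0.564, 0.650 and 0.656 RPKM at 24 h. Non-clustered genes differed, with a median of 0.0421 RPKM before and 0.218 RPKM after the start at 1 h, both below the inputs of 0.320 and 0.529 RPKM, and 0 of 12 reached 2 times the input after the start, against 41 of the 42 clustered genes. Single genes departed from these medians at 1 h. The bin at the start read 1.62 RPKM in Pcdh11x and 0.859 in Pcdh15, with inputs of 0.150 and 0.192, and lay below the input in the other non-clustered genes. After the start, Pcdh20 (0.731 RPKM, input 0.553), Pcdh9 (0.641, 0.518), Pcdh1 (0.626, 0.405) and Pcdh19 (0.376, 0.322) lay above the input and the others below it. Pcdh1 and Pcdh15 had captured bins elsewhere in the gene, 8 of 14 and 95 of 771 bins at 1 h. Promoters of the beta genes held a median of 6 CpG in 300 bases, those of gamma genes 8 and those of non-clustered genes 10 (5 to 33), against 7 over all promoters. The CpG content of the variable exons was not counted, so captured levels were not set against it.

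**Figure D5:**
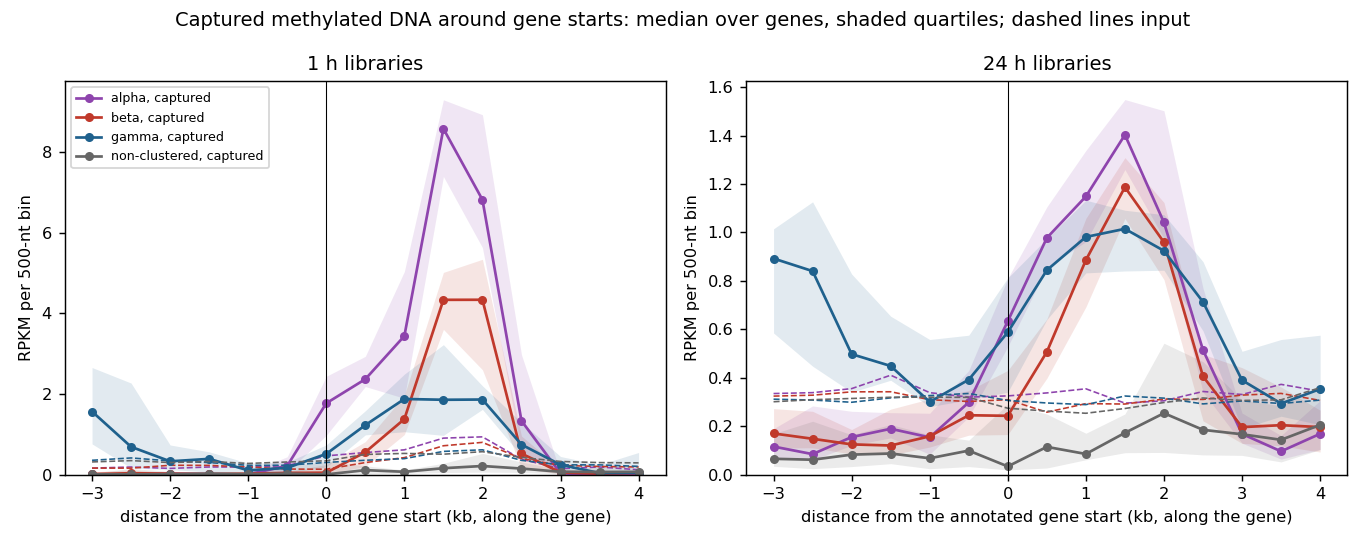
Captured DNA in RPKM per 500-nt bin against the distance from the annotated gene start in kb, for libraries at 1 h and 24 h; solid lines are medians over genes of a class, shading the quartiles and dashed lines the input. The median of captured DNA is highest 1 to 2 kb inside clustered genes, at 8.58 RPKM in alpha and 4.34 RPKM in beta genes at 1 h. In non-clustered genes the median stays below the input.

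Whether training changed captured DNA was tested in bins above the filter, 314 bins of protocadherin genes at 1 h and 147 at 24 h. At 1 h 0 of 314 bins were called by limma in threat against naive (0.016% of all bins called, 71 member bins at an unadjusted p under 0.05), place against naive (0.00285%, 7) or threat against place (0.0174%, 45). At 24 h 0 of 147 were called in threat against naive (0.0105%, 29) and place against naive (0.0082%, 14). In threat against place at 24 h, 22 of 147 bins were called, all higher in threat, where 7.7% of all bins tested were called.

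The 22 bins were 11 in the alpha cluster, 7 in beta genes, 3 in gamma genes and 1 in Pcdh15. The largest difference was that of a bin in the spans of Pcdha8 and Pcdha9 at 29709501 to 29710000 on chromosome 18, with 1.82, 1.98 and 1.99 RPKM in the 3 threat libraries and 1.45, 1.00, 1.06 and 0.644 RPKM in the 4 place libraries at 24 h. Its naive libraries read 1.86, 1.46 and 0.980 RPKM, which overlapped both. The difference was 0.79 ± 0.18 (SE; limma adjusted p = 0.0292). A bin of the alpha exon PCDHA4 at 29671501 to 29672000 had 2.18, 2.01 and 2.16 RPKM in threat and 1.62, 1.06, 0.952 and 1.33 RPKM in place libraries, a difference of 0.69 ± 0.16 (adjusted p = 0.0292).

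These calls came with a shift over the whole data set. In the same comparison 95.0% of all bins tested were above 0, with a median of 0.28, and 142 of 147 member bins were, with a median of 0.32. After quantile normalization, which removes such a shift, 0 of the 147 bins were called. Without place replicate 3, place replicate 4, threat replicate 1 or threat replicate 2 at 24 h 0 were called, without place replicate 2 there were 5, and without place replicate 1 there were 45. The beta and gamma bins called held no bin of Pcdhb8, Pcdhga7 or Pcdhga10, the clustered genes whose mRNA was called. At 24 h only 1 bin of Pcdhb8 and 1 of Pcdhga7 passed the filter, and 0 of Pcdhga10. The absence of calls therefore cannot show whether captured DNA and mRNA of these genes were linked.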

How the data were processed

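RNA was polyadenylated, directional and of RNA integrity number above 8, per the labels' protocols. The authors deposited FPKM per gene and library and RPKM per 500-nt bin of captured DNA. Bowtie, TopHat 1.4.0, edgeR, DESeq2 and the builds rn5 and mm10 are listed, without roles, in the submitters' processing notes, and the tables carry a mouse build in their titles while their positions lie in rat rn5. FPKM were tested with limma 3.58.1 (R 4.3.3) as log2(FPKM + 1) in 1 fit of the 5 groups with 9 contrasts and Benjamini-Hochberg adjustment over 13153 genes. RPKM were tested as log2(RPKM + 0.25) for each time in bins with a captured mean of at least 1 RPKM and 2 times the input. Of the bins, 21 shorter than 500 nt were left out. RPKM values were whole multiples of 1 read within 0.1. No counts came with the FPKM, so their depth is unknown. The scripts were tested on simulated data. Named genes are every protocadherin called in a contrast, the lowest p where none was, the 3 highest of each class, and up to 3 of each related list. Members and lists were chosen with earlier results of these data known. Alternatives covered pseudocount, filter, scaling, samples fitted, replicate block, weights, naive libraries and single libraries, and those on mean levels were added after seeing the data.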

Additional observations from a re-analysis of the deposited data

Results flagged for a closer look

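In groups of 4 to 10 libraries, 110 groups of 22 protocadherin genes were searched for a library far from the others, and 6 held one, where chance gives about 1 in 20. Pcdh1 read 50.2 FPKM in place 1 h replicate 3, with the next library at 30.9. Pcdh20 read 15.7 FPKM in the same library, with the next at 8.10. Pcdh17 read 10.99 FPKM in naive replicate 6, with the next at 8.30. Pcdh15 read 0.733 FPKM in threat 1 h replicate 6, below the next at 1.04. Pcdhgb7 read 3.29 FPKM in place 1 h replicate 6, with the next at 2.78. Pcdhga1 read 0.302 FPKM in naive replicate 2, with the next at 0.199.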

How the results depend on the processing

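No result changed direction past the threshold under an alternative. Shares in brackets are those of all genes or bins called under the same setting. Protocadherins called at 1 h against naive were 10 in threat (19.8%) and 10 in place (12.7%) with naive libraries 5 to 9 alone. For threat against naive at 24 h (3 called) they were 1 of 13 with the 5 FPKM filter (11.9%), 1 with only the groups compared (2.96%), 9 with naive libraries 1 to 4 (29.6%), 1 with 5 to 9 (0.456%), and 1 to 4 leaving out single libraries (5.85% to 14%). For place against naive at 24 h (1 called) they were 0 (6.15%), 0 (0%), 6 (23.7%) and 0 (0.0836%) in the same order, 4 with array weights (12.7%), and 0 to 3 leaving out single libraries (1.79% to 8.52%). For 24 h against 1 h in threat (6 called) they were 3 of 13 with the 5 FPKM filter (32.5%), 12 after quantile normalization (27.7%), 3 without threat 1 h replicates 4 and 7 (22.5%), and 2 to 7 leaving out single libraries (24.9% to 31.2%). In place (0 called) they were 2 after quantile normalization (12.1%), 1 with only the groups compared (12%), 8 with array weights (31.4%), and 0 to 2 leaving out single libraries (8.55% to 15.9%). Captured bins called in threat against place at 24 h (22) were 1 of 3 at a mean of 2 RPKM (11%), 4 of 159 with no condition on the input (1.02%), 0 after quantile normalization (0.00586%), and 0 to 45 leaving out single libraries (0.00234% to 17.9%). Leaving out single libraries gave 0 to 15 bins in threat against naive at 1 h (0.00457% to 2.31%), 0 to 3 in threat against place at 1 h (0.00771% to 0.13%) and 0 to 2 in threat against naive at 24 h (0.00117% to 0.64%).

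Same-numbered RNA libraries of different groups did not deviate together more than others (17 of 58 pairs had a correlation over 0.1, against 117 of 399 pairs of different number). For captured DNA 0 of 9 same-numbered pairs had a correlation over 0.1 at either time (medians -0.02 at 1 h and 0.03 at 24 h), although at 24 h replicate 1 had the highest and replicate 3 the lowest mean RPKM over tested bins in each of the 3 groups. A correlation over genes or bins does not register such a shift in the level of whole libraries. The main fits took the libraries to share only a number, and whether they share handling was not tested. With a replicate block, 2 protocadherins were called in place against naive at 24 h (8.61%), Pcdhb8 and Pcdh15, and 1 in 24 h against 1 h in place (13.7%), Pcdhb8. The block took Pcdh17 in threat against naive at 24 h to an adjusted p of 0.0766. In 24 h against 1 h in threat it took Pcdh17, Pcdhga7 and Pcdhga10 to 0.0657, 0.0894 and 0.0807, whereas Pcdha8, Pcdha9 and Pcdhac2 were called. Captured bins called with the block were 1 of 314 in threat against place at 1 h (0.0862%), 3 of 147 in threat against naive at 24 h (3.61%, against 0.0105% without it) and 29 in threat against place at 24 h (14.6%). The cause of these changes was not tested. FPKM without read totals limits what low genes such as Pcdhga1 can show.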
